A study of Caenorhabditis elegans with 2 samples.

Results

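The regions described here are strong peaks of DAF-8::GFP chromatin immunoprecipitation with sequencing (ChIP-seq) whose summits lay in introns, away from promoters. A member had a deposited signal of 35 or more in the ranked list that compares the true replicates. Its summit lay inside a protein-coding gene but in no exon of any gene, outside the stretch from 1000 bp upstream to 250 bp downstream of every protein-coding transcript start, and over 200 bp from any tRNA, snRNA, snoRNA or rRNA gene. The rule found 1281 members among 101032 ranked peaks. They were 5.14% of the 24923 ranked peaks that met the position rule, where 6.21% of all ranked peaks reached the same signal. The members were thus chosen by the deposited signal, so signals and reproducibility are given as descriptions, with no test.

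The study mapped where DAF-8 is recovered on chromatin in whole Caenorhabditis elegans at the L4 stage, 47 hours of age, in 2 biological replicates of 1 group. The strain, OP790, carries the transgene wgIs790, a fosmid with daf-8 fused to TY1, EGFP and 3xFLAG tags together with unc-119(+), in an unc-119(tm4063) background. Worms were synchronised by starving hatchlings obtained by bleaching, and sonicated chromatin was precipitated with an antibody against GFP. The fosmid adds copies of daf-8 to the genome, all tissues were mixed, and neither an untagged strain nor an input library was analysed here, so recovery that needs the protein cannot be told apart from recovery that does not.

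DAF-8 is a receptor-regulated SMAD, a transcription factor that a TGF-beta receptor activates by phosphorylation. In C. elegans the ligand DAF-7 signals through DAF-1 and DAF-4 to DAF-8 and DAF-14, which oppose DAF-3, a SMAD, and its partner DAF-5, a relative of the Sno and Ski proteins, and so keep larvae out of the dauer stage. SMAD proteins bind the short word GTCT, or AGAC on the other strand, which is common by chance in any genome, and introns of worm genes can hold enhancers, repeats and nested noncoding genes.

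The summit sequences below are shown because they hold the features that the following paragraphs count. Each is 101 bases centred on the summit, on the plus strand of WBcel235 (ce11), read from RefSeq. In the daf-5 and mdt-26 peaks the capitals mark GTCT or AGAC, and in the daf-5 peak 3 of these lie end to end and include the palindrome GTCTAGAC. The daf-5 window is chrII:14040433-14040533 and the mdt-26 window is chrII:5661744-5661844.
daf-5: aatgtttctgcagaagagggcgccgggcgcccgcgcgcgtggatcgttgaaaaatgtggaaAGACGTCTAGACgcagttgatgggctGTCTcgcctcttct
mdt-26: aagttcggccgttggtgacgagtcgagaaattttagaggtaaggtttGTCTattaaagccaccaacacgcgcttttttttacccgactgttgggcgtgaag

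In the mom-1 and Y41G9A.17 peaks the capitals mark TCGCGCAGGG or its reverse complement, which is part of the motif known from recruitment sites of the dosage compensation complex on the X chromosome. The windows are chrX:6296518-6296618 for mom-1 and chrX:2997065-2997165 for Y41G9A.17.
mom-1: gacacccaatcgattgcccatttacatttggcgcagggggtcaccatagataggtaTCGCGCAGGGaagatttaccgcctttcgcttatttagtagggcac
Y41G9A.17: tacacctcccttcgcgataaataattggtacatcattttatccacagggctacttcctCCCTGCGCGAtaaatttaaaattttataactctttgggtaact

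In the cmk-1 and F01D5.10 peaks the capitals mark an 8-base word that recurs within a tandem repeat, and in the srw-100 peak they mark TTTGCCG or its reverse complement. The windows are chrIV:1831321-1831421 for cmk-1, chrII:14019667-14019767 for F01D5.10 and chrV:1713896-1713996 for srw-100.
cmk-1: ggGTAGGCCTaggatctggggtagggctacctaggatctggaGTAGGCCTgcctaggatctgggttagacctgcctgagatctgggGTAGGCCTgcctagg
F01D5.10: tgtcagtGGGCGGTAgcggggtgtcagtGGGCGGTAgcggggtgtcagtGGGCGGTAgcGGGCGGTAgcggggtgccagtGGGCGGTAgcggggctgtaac
srw-100: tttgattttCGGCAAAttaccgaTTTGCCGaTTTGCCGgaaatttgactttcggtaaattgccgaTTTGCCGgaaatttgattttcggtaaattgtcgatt

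The lips-10 peak, chrII:8441686-8441786, is shown as a strong summit that holds none of the words marked above and no tandem repeat, so it has no capitals.
lips-10: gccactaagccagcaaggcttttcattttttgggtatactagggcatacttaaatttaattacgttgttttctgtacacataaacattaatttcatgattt

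Most members sat just above the signal minimum, and a few stood far above it. The signal ranged from 35 to 157 with a median of 39.1, and 27 members reached 60. The members nearest the minimum lay in lgc-56 (35.004), clec-119 (35.006) and grh-1 (35.012), and the intron peaks just below it lay in T02H6.1 (34.986), Y54G2A.73 (34.990) and Y71G12B.33 (34.992), so the minimum cuts through a continuous range. No member overlapped another, and no 2 members shared a peak of either compared list.

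Each member also has a signal in both of the lists that were compared. For 1114 members the peak of list 1 was found in the list of replicate 1 alone, and all 1114 had the same signal there. For 1157 members the peak of list 2 was found in the list of replicate 2 alone, again with the same signal in all. The median over members was 19.1 in list 1 and 20.9 in list 2, and the signal of the member itself, taken to be that of the pooled reads of both replicates, was higher than both for all 1281 members.

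The strongest member lay in intron 5 of ints-8, an Integrator complex subunit gene, with signals of 75.8 in list 1 and 87.8 in list 2 and 157 in the pooled reads (mean of the lists 81.8 ± 8.47, SD, n = 2). Its summit was within 200 bp of rpr-1, the gene annotated as noncoding RNA that is known for the RNA of ribonuclease P. The cmk-1 member, in intron 2 of the gene for calcium/calmodulin-dependent kinase I, had 48.9 in list 1, 82.2 in list 2 and 136 pooled (65.6 ± 23.5). These were the only members in the thresholded lists of both single replicates, and the lists differed more for cmk-1 than for ints-8.

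The next members were close to one another in pooled signal. The mom-1 member, in intron 7 of a Porcupine gene of Wnt secretion, had 48.2 in list 1, 43.0 in list 2 and 88.6 pooled. The mdt-26 member, in the first intron of a Mediator subunit gene, had 38.6, 52.4 and 87.8 in the same order. These 2 pooled signals differed by less than the gap between the lists of either member. The Y41G9A.17 member had 41.7 in list 1, 48.6 in list 2 and 87.6 pooled, and the lips-10 member, in a gene named for lipase similarity, had 47.8, 33.5 and 79.2.

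Further down, the order depended on the list. The stim-1 member, in a gene for a calcium sensor of the endoplasmic reticulum, had 36.2 in list 1 and 70.8 in list 2, against 73.3 pooled. The ptr-17 member, in a Patched-related gene, had 21.5 and 43.7 against 69.0 pooled. Both were higher in list 2 than several members ranked above them, and lower in list 1 than every member ranked above them. The other members of the strongest 15 lay in suro-1, T28F4.1, ceh-60, Y69A2AR.31, col-52, F01D5.10 and daf-5, with pooled signals from 65.8 to 71.7. T28F4.1 was the other of these 15 with a noncoding gene, T28F4.7, within 200 bp.

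**Figure D1:**
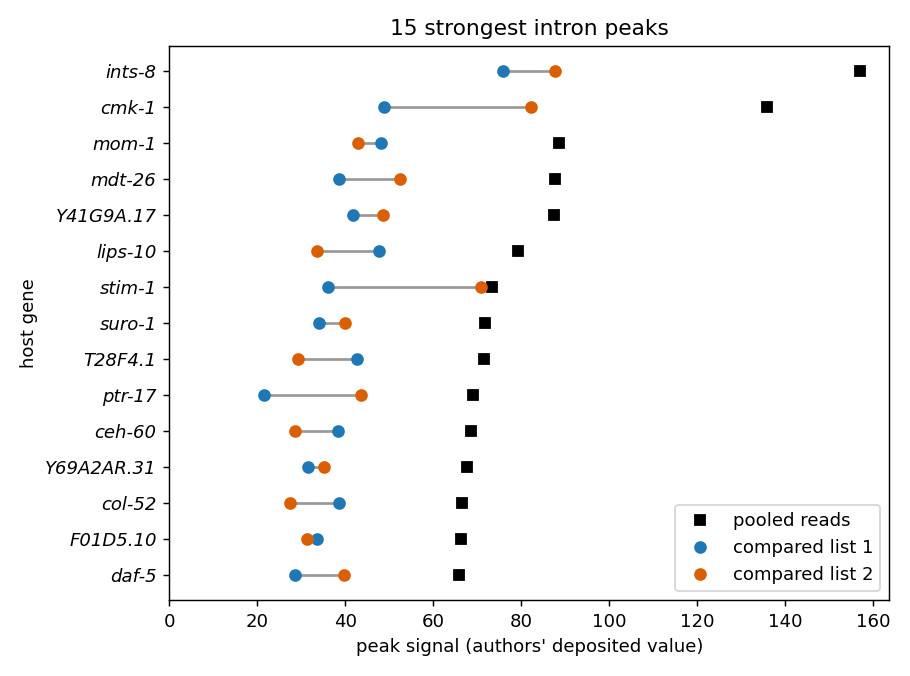
Deposited signal (horizontal axis, from 0) of the 15 strongest members by host gene. Black squares are the signal of the peak in the ranked list, taken to be that of the pooled reads, blue and orange points the signals in compared lists 1 and 2, and the grey line joins the lists; ints-8 (157) and cmk-1 (136) stand apart, and the lists lie far apart for cmk-1 and stim-1.

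Few members passed the authors' threshold on reproducibility, and those that did were among the strongest. The irreproducible discovery rate (IDR) is the expected share of irreproducible calls at a given rank or above. A peak of the true-replicate thresholded list overlapped 19 members (1.48%), against 0.269% of all ranked peaks and 3.49% of strong peaks of every kind. Such a peak also overlapped 8 of the 23642 ranked intron peaks of lower signal (0.0338%). The rule used the same reads, so nothing is read from these shares. All 19 members had an IDR of 0.01 or less, no other member did (0.259% of all ranked peaks did), and the lowest signal of the 19 was 60.6. Of the 27 members at 60 or more, 19 passed, and 0 of the other 1254 did. These were the members in ints-8, cmk-1, mom-1, mdt-26, Y41G9A.17, lips-10, stim-1, suro-1, T28F4.1, ceh-60, Y69A2AR.31, col-52, F01D5.10, daf-5, ver-1, Y105C5B.5, mod-5, zip-7 and herc-1.

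The members that passed included genes of several kinds. ceh-60 encodes a homeodomain protein of the PBC group, zip-7 a bZIP protein, ver-1 a receptor tyrosine kinase, mod-5 the serotonin reuptake transporter and col-52 a collagen. The ceh-60 member, in intron 8, had 38.3 in list 1 and 28.7 in list 2, and the mod-5 member, in intron 11, had 35.1 and 32.3. The members in mod-5, zip-7 and herc-1 were in the true-replicate thresholded list and not in the pooled one. The pooled thresholded list overlapped 20 members (0.325% of all ranked peaks, 4.16% of strong ones). The list of replicate 1 alone overlapped 3 members, against 0.0703% of all ranked peaks and 0.924% of strong ones, and that of replicate 2 alone 4, against 0.0831% and 1.13%.

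The lists were negatively correlated over the members, a set chosen by its signal. Spearman's rho between the lists was -0.478 over the 1281 members, 0.0720 over the 23642 ranked intron peaks of lower signal and 0.165 over all 101032 ranked peaks. The members were cut on a signal taken to be that of the pooled reads. The rho over members is therefore no measure of agreement between the replicates, and the part of that cut in it was not tested. A member could be below the median in both lists. The gcy-23 member had 17.1 in list 1 and 4.97 in list 2 against 43.4 pooled. List 2 was the higher for 714 members (55.7%), where it was the higher for 48.3% of all ranked peaks. The lists were within a factor of 2 of each other for 985 members (76.9%). The share of all ranked peaks within that factor is not given here, so nothing is read from this count.

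**Figure D2:**
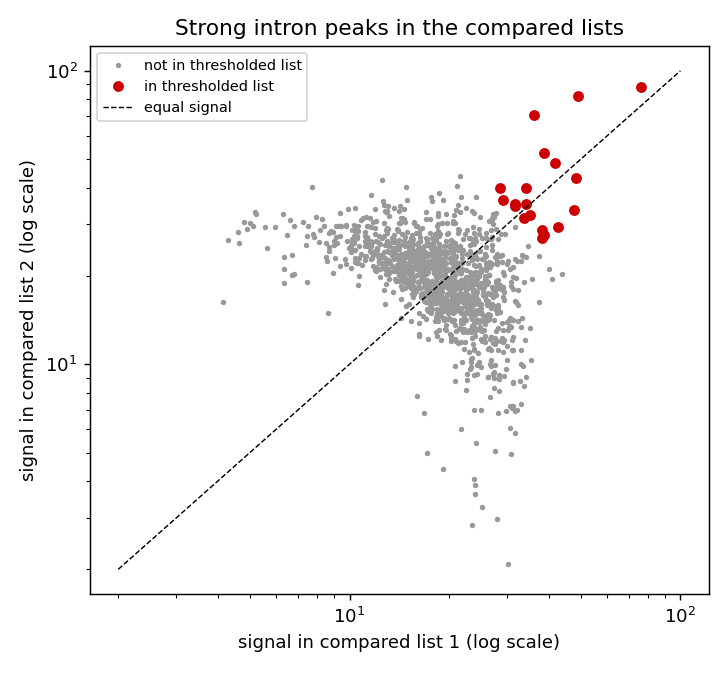
Signal of each of the 1281 members in compared list 1 (horizontal) and compared list 2 (vertical), both on log scales, with the dashed line at equal signal. Grey points are the members not in the thresholded list, and the 19 members of that list (red) lie at the upper right, high in both lists.

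The host genes included parts of the pathways that control dauer entry, and the one thresholded peak among them lay in daf-5. The strongest daf-5 member, 324 bp at chrII:14040321-14040644, had 28.5 in list 1, 39.8 in list 2 and 65.8 pooled (34.1 ± 8.0), with an IDR of 0.00590. It lay in the first intron of daf-5, which is 14446 bp long, and 2762 bp upstream of the nearest protein-coding start, which is that of another daf-5 transcript. The same intron held 3 further members, with pooled signals of 44.8, 43.3 and 36.6, none of them thresholded. With 4 members of 24 ranked intron peaks, daf-5 was level with 8 other genes for the most members in 1 gene.

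The lists of pathway genes were written with earlier results of these data known, so their counts are descriptions. Of the ranked intron peaks in genes of the DAF-7 pathway, 6 of 69 were members (8.70%), 4 in daf-5 and 2 in egl-4, a cGMP-dependent protein kinase. In the Sma/Mab pathway, the BMP-like pathway of body size, 1 of 33 was a member (3.03%), in the co-receptor gene drag-1. Genes of dafachronic acid, the steroid hormone of reproductive growth, held 5 of 53 (9.43%), 3 in its nuclear receptor gene daf-12 and 2 in the hydroxysteroid dehydrogenase gene hsd-1. The insulin pathway held 6 of 88 (6.82%), 3 each in the receptor gene daf-2 and the FOXO gene daf-16. The share over all genes was 5.14%, and the members of each of these lists lay in 1 or 2 host genes.

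Apart from the strongest daf-5 peak, no pathway member was thresholded, and the lists were close for some and far apart for others. The strongest daf-12 member, 52.0 pooled, had 17 in list 1 and 33.1 in list 2, and the weakest had 24.0 and 3.89. The daf-2 member of 41.5 pooled had 19.3 and 20.1, and the daf-16 member of 38.7 pooled had 17.5 and 18, so these were nearly equal. By the repeat measures given below, that daf-2 window was a tandem repeat (87.9% of bases matching) in a median of 120.5 copies in the genome. That daf-16 window was in 1 copy. The daf-2 members had pooled signals of 49.2, 41.5 and 35.9, and the daf-16 members 45.3, 38.7 and 36.9. The egl-4 members had 39.6 and 39.0, the hsd-1 members 37.0 and 35.9, and the drag-1 member 36.7. All of these were below the lowest thresholded member at 60.6.

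Other lists of genes gave shares on either side of 5.14%. Members were 9 of 100 ranked intron peaks in homeobox genes (9.0%), among them ceh-60, lin-39 and vab-3, and 11 of 211 in genes of synapse and neuron function (5.21%), 3 of them each in slo-1, a potassium channel gene, and unc-2, a calcium channel gene. They were 6 of 65 in genes of autophagy and stress response (9.23%), with 4 in hlh-30, and 4 of 100 in body wall muscle genes (4.0%). Germline genes held 3 of 20 and chaperone genes 1 of 9. Genes of pharynx, intestine and hypodermis held no member among 8, 11 and 12 ranked intron peaks, so these shares of 0 rest on few peaks. No difference between lists was tested.

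In all, 1116 host genes held a member, 12.8% of the 8693 protein-coding genes with a ranked peak that met the position rule. Of these, 993 held 1 member, 90 held 2 and 33 held 3 or more, and the highest number was 4. The genes with 4 were daf-5, herc-1, ell-1, tir-1, Y48C3A.5, lit-1, Y54H5A.2, ajm-1 and hlh-30. By chromosome, the share of ranked intron peaks that were members ran from 4.24% on X (95% Wilson interval 3.66 to 4.91) to 5.78% on III (5.12 to 6.51). None lay within 20 kb of daf-8 itself, the locus the transgene carries. A count of 0 allows a share of up to 0.234%, taking 3 counts of 1281 as the limit, or 0.299% by the Wilson interval. The share of all ranked peaks in that short stretch is not given here, so nothing is read from this count about the transgene.

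The introns of members had lengths close to those of lower peaks. The median intron length was 977 bp for members and 931 bp for the 23642 lower intron peaks, and 18.5% and 18.7% of them lay in the first intron. The median distance to the nearest protein-coding start was 1615 bp, and the smallest was 252 bp. Peaks were 324 bp wide, so 249 members (19.4%) lay in introns shorter than the peak, and the whole peak was inside the intron for 728 (56.8%). A noncoding gene lay within 200 bp of 60 members (4.68%) and of 4.75% of lower intron peaks, and 42 of the 60 had one annotated as ncRNA. The rule itself kept summits out of the exons of these genes. A miRNA gene lay near 3 members, named after their values were seen: B0361.11 near mir-2214 (pooled signal 46), Y67D8A.2 near cel-mir-58a (36.9) and gid-2 near cel-mir-81 (36.9).

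Members had more G and C at the summit than weaker intron peaks. Within 50 bp of the summit the mean was 41.8% ± 9.30 (SD over 1281 members) against 35.9% ± 8.43 over lower intron peaks and 38.7% ± 8.74 over all ranked peaks. It climbed with signal, from 34.5% below a signal of 10 to 39.3% at 30 to 35, 40.4% at 35 to 40 and 48.4% at 60 or more. Strong peaks of other kinds were also G and C rich, with 46.2% elsewhere in gene bodies, 43.5% at promoters and 43.7% between genes. Among windows wholly inside the intron, members had 42.8% (n = 992) and lower peaks 36.0% (n = 18277), so the difference was as large without exon sequence in the window. Peaks overlap in their range, and how base composition bears on the recovery of chromatin was not tested.

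**Figure D3:**
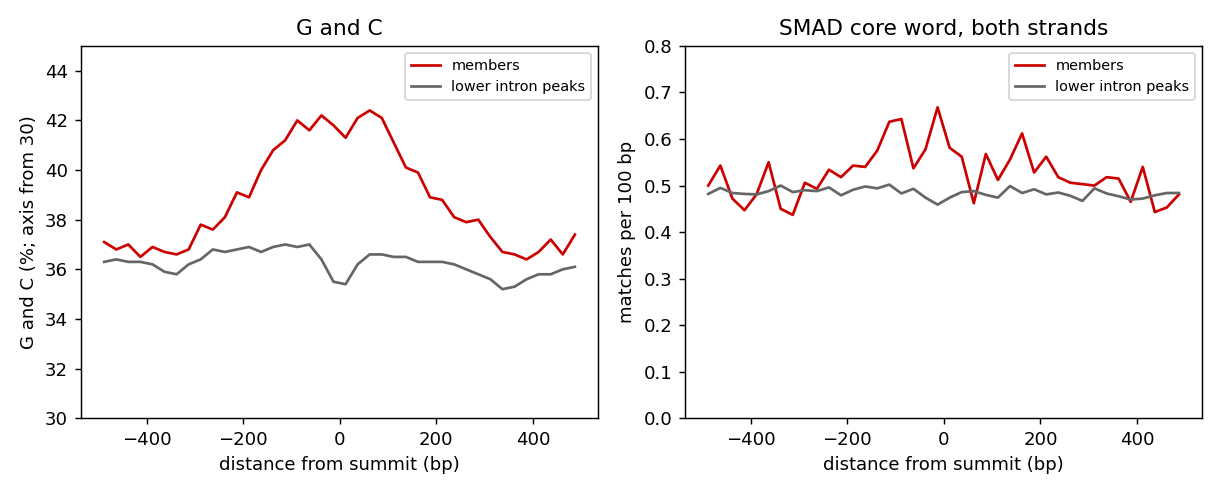
Mean G and C percentage (left, axis from 30) and matches of GTCT or AGAC per 100 bp (right) in 25 bp bins from 500 bp before to 500 bp after the summit, for the 1281 members (red) and the 23642 lower intron peaks (grey). Members peak near 42% over about the middle of the plot, while the lower peaks stay near 36%.

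The SMAD core word was slightly more frequent at member summits than beside them. GTCT or AGAC occurred 0.579 times per 100 bp within 50 bp of the summit and 0.475 times in flanks 300 to 400 bp away, a mean difference of 0.104 ± 0.982 (SD over members). The lower intron peaks had 0.459 and 0.471. In 25 bp bins, members had 0.668 just before the summit and 0.581 just after it. The bins from 125 to 76 bp before the summit had 0.637 and 0.643, so the higher values were not confined to the summit. The mean difference was 0.127 in the 992 member windows wholly inside the intron and 0.0261 in the 289 that reached an exon. At least 1 match lay in the window of 513 members (95% Wilson interval 37.4% to 42.8%), of 34.8% of lower intron peaks and of 39.9% of all ranked peaks. Strong peaks at promoters (43.2%), elsewhere in gene bodies (43.9%) and between genes (42.3%) had it at least as often. Whether the mean difference departs from 0 was not tested. The G and C content moved with it, and its part was not tested.

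The strongest daf-5 summit, printed above, held 4 matches to the core word, and its window had 57.4% G and C. Others of the 15 strongest members held as many or more. The col-52 window held 7, in a tandem repeat described below, and the ptr-17 window held 4. GTCTAGAC, the palindrome of the core word, was in the windows of 2 members, daf-5 and trpp-11, the latter with a pooled signal of 37.6 and 13.5 and 24.5 in the lists. It was in 18 of the lower intron windows (0.0761%) and in 0.0633% of all ranked windows. Of the 15 strongest members, several, among them mom-1, Y41G9A.17, lips-10, stim-1, ceh-60, Y69A2AR.31 and F01D5.10, held no match to the core word within 50 bp.

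The words other than GTCT were picked after earlier results or the summit sequences had been seen. In all 22 words were looked at by name and 6 are described here, after a ranking of 2080 words of 6 bases and 28595 of 8 bases between members and lower intron peaks. TCGCGCAGGG and TTTGCCG were taken from the strongest summits themselves, so their shares are no independent evidence.

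TCGCGCAGGG, as read from the mom-1 summit, was rare, and every ranked window that held it was on X. Both members that held it, mom-1 and Y41G9A.17, were thresholded and among the 5 strongest. It was in 9 of 101032 ranked windows, all on X, and 6 of these were strong peaks, all 6 thresholded. One of the other 3, a weak intron peak of signal 6.85, overlapped the Y41G9A.17 member and shared its peaks in both lists. This weak peak was also overlapped by a thresholded peak, with an IDR of 0.00107. The whole genome held 19 matches on X, 1.07 per Mb, of which 9 had a ranked and 6 a strong summit within 50 bp. It held 6 on the autosomes, 0.0727 per Mb, and none of these had a ranked summit that near.

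Measures of repeats at members did not all go the same way against lower intron peaks. The 101-base window occurred in more than 1 copy in the genome, by the median count of its 18-base words, for 263 members (20.5%, Wilson 18.4 to 22.8) and 18% of lower intron peaks. The share was 11.9% for all ranked peaks, 4.29% for strong peaks elsewhere in gene bodies, 9.18% at promoters and 26.5% between genes. A tandem repeat, meaning that at least 0.7 of the bases matched those 1 period away, lay at 52 members (4.06%) and 2.47% of lower intron peaks. The tandem share was 1.46% for all ranked peaks, 0.705% for strong peaks elsewhere in gene bodies and 1.56% at promoters. At 7.66%, strong peaks between genes had it more often than members. Of the 27 members of signal 60 or more, 10 were in more than 1 copy (37.0%) and 4 were tandem (14.8%). Lower-case (masked) bases went the other way, with a mean of 38.7% ± 32.6 (SD) of member windows and 45.4% ± 31.6 of lower intron windows. Wholly lower-case windows were 7.34% and 7.57%. By signal, the mean lower-case share fell from 47.5% below 10 to 26.3% at 60 or more. How reads from repeated sequence were placed is not stated in the labels or files used, and its part was not tested.

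The strongest tandem members were cmk-1, col-52 and F01D5.10. The cmk-1 window had a best period of 44 bp with 80.7% of bases matching, and was in 2 copies. The col-52 window had a period of 45 bp with 96.4% matching and a median of 115 copies, and the F01D5.10 window 21 bp with 80.0% and 6 copies. All 3 were thresholded, with pooled signals of 136, 66.5 and 66.3.

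TTTGCCG or its reverse complement lay in the window of 123 members (9.60%, Wilson 8.11 to 11.3), 5.71% of lower intron peaks and 3.49% of all ranked peaks. Among windows in 1 copy the shares were 5.01% for members and 3.30% for lower intron peaks. The strongest member with it was srw-100, a gene of a serpentine receptor class, with 4 matches, 26 copies of its window, 30.2 in list 1, 22.5 in list 2 and 63.1 pooled. GCGCGC lay at 43 members (3.36%), at 1.02% of lower intron peaks and 0.979% of all ranked peaks. It lay at 3.06% of strong promoter peaks and 3.03% of strong peaks between genes. GGTTCGA, which is found in the internal promoter of tRNA genes, lay at 20 members (1.56%), at 0.783% of lower intron peaks, 1.02% of all ranked peaks, and 28.6% of strong peaks near small RNA genes. No difference in these shares was tested.

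**Figure D4:**
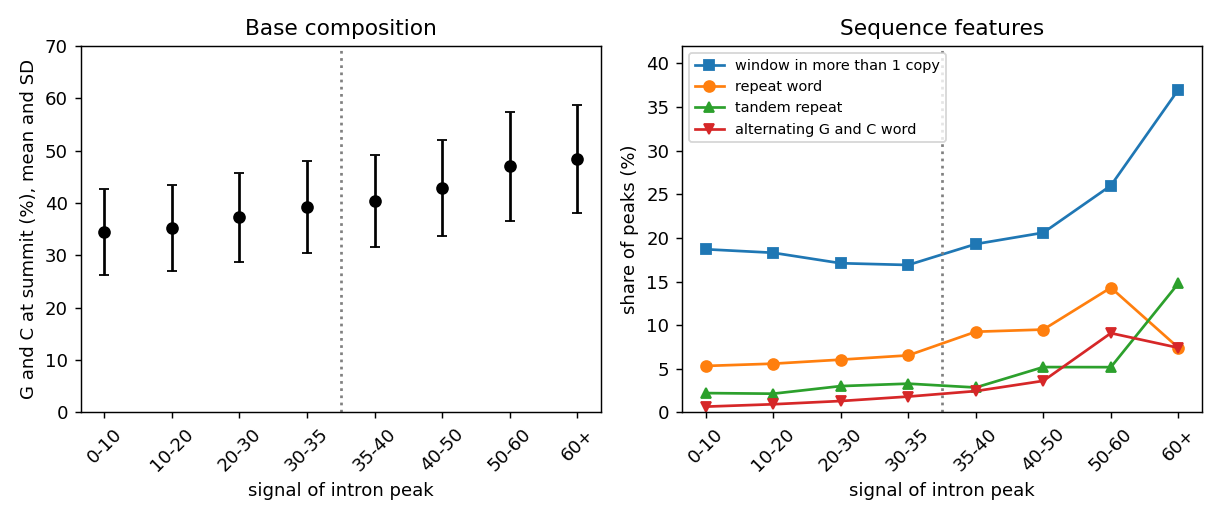
Base composition (left, mean and SD over peaks) and shares of peaks with 4 sequence features (right) of ranked intron peaks by signal; the dotted line is the member minimum of 35. The repeat word is TTTGCCG or its reverse complement and the alternating word GCGCGC; G and C climbs from 34.5% to 48.4%, and the 27 peaks of 60 or more have the highest shares in more than 1 copy (37.0%) and with a tandem repeat (14.8%).

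**Figure D5:**
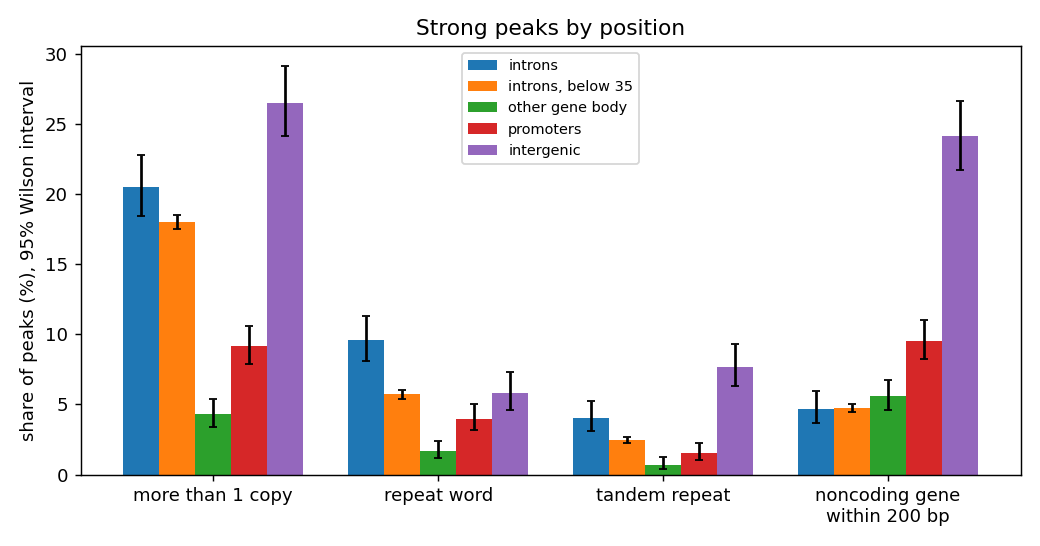
Share of peaks (vertical axis, with 95% Wilson intervals) with 4 features in the members, the intron peaks below 35 and strong peaks of 3 other positions. Members have more repeated windows (20.5%) than strong peaks elsewhere in gene bodies (4.29%) or at promoters (9.18%), fewer than those between genes (26.5%), and about as many noncoding genes nearby (4.68%) as those elsewhere in gene bodies.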

How the data were processed

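ChIP-seq peak lists on ce11 were deposited for 2 replicates, singly, pooled and compared as true replicates, each as a ranked and a thresholded list. The signal of each peak and the −log10 of its IDR are the authors' deposited values. The scaling for depth, the peak caller, the aligner and the kind of control are not named in the labels or files used, and read depth is unknown. Per the texts deposited with the lists, all lists derive from the alignments and 1 shared file. Genes came from Ensembl release 115 (WBcel235) and sequence from RefSeq. Python 3.11.15, numpy 2.4.6, pandas 2.3.3, scipy 1.17.1 and matplotlib 3.10.9 were used, and the counting was tested on simulated data. Wilson intervals cover counting error over regions only, and regions are not replicates.

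Members and lists were chosen with earlier results of these data known, and words, window copies (18-base words), the tandem measure and signal bins after sequences were seen. Named were thresholded members, the 15 strongest, members in the 4 pathway lists and 3 peaks either side of the minimum; others were named after their values were seen. Alternatives changed the signal minimum, the promoter window, the noncoding distance, the list and the exon rule.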

Additional observations from a re-analysis of the deposited data

How the results depend on the processing

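Of 49 alternatives over 9 results, 36 stayed within 1.5 times the count or within the 95% interval of the value, and 13 did not. For list signal, the spread between lists was used. None changed sign, but only the GTCT difference could have done so, as the other results cannot be negative. For means and for intron length the 95% interval replaced the SD over members after the values had been seen, which counts more alternatives as moved. A signal of 50 or more left 104 members and 25 or more gave 5255. At 50 or more the median list signal was 27.5 in place of 19.5, G and C at the summit 47.4% in place of 41.8%, the GTCT difference 0.190 in place of 0.104, the share mostly in lower-case (masked) sequence 25% in place of 34.3%, and the median intron length 1241 bp in place of 977 bp. The 19 thresholded members were 3 to 4 with 1 replicate's own list alone. Noncoding genes within 50 bp, not 200 bp, were near 2.26%, not 4.68%. Reading the rule as exons of protein-coding genes only, added after seeing the data, gave 1332 members, 22 of them thresholded, and 8.33% near noncoding genes. Tandem repeats, for which a match of 0.7 was kept after all 3 settings had been seen, were at 7.88% of members with a match of 0.6 (lower intron peaks 4.19%) and 2.73% with 0.8 (1.37%). No paired analysis was possible because there was 1 group and no test.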
